A study of Mus musculus with 16 samples.

Results

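The 9 genes described here encode scavenger receptors of macrophages. They are Msr1, Marco, Cd36, Cd163, Stab1, Scarb1, Scarb2, Cd68 and Olr1, and they were taken by symbol, with the GENCODE M21 annotation, from the 54532 gene identifiers in the count table of each library. All 9 were found, and 8 passed the filter on low counts in every comparison. Olr1 did not pass in any.

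Scavenger receptors bind ligands as different as modified lipoproteins, bacterial surfaces, dying cells and haemoglobin complexes, and carry them into the cell for lysosomal breakdown. They are grouped into classes by structure. Class A holds the trimeric receptors Msr1 and Marco, class B holds Cd36, Scarb1 and Scarb2 with their membrane anchors at both ends, and class D holds the lysosomal glycoprotein Cd68. Olr1, a C-type lectin, forms class E, the large endocytic receptor Stab1 belongs to class H, and the haemoglobin-haptoglobin receptor Cd163 to class I. Several of them, among them Cd163, Stab1 and Marco, are widely used to describe macrophages that infiltrate tumours.

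Libraries came from mouse bone marrow cells grown for 7 days with 20 ng/mL M-CSF, the growth factor that turns marrow precursors into macrophages, and then kept for 24 h with or without medium conditioned by melanoma cells. That tumour-conditioned medium (TCM) came from YUMM1.7, a mouse melanoma line, and made up 70% of the culture. Wild-type cells without TCM formed the group WT naive (n = 3) and wild-type cells with it WT TCM (n = 3). TRAP1 knockout cells with TCM formed TRAP1 KO TCM (n = 4). Wild-type cells of the JMJD3 line with TCM formed JMJD3 WT TCM (n = 3), and conditional JMJD3 knockout cells with TCM formed JMJD3 cKO TCM (n = 3). All 5 groups therefore shared the M-CSF culture and only WT naive lacked TCM, so that an effect of TCM was measurable in the first wild type alone. TRAP1 is a mitochondrial chaperone related to HSP90. JMJD3, encoded by Kdm6b, is a demethylase of the repressive histone mark on lysine 27 of histone H3. The sources used here name no Cre driver for the conditional allele, no strain, no age and no number of mice. Nothing says that replicates came from separate mice or cultures, and the spread on which the p-values rest may be technical.

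Library totals lay between 15361604 and 22426820 counts. Levels are given as CPM, the counts of a gene relative to its library's total, on TMM-scaled totals of all 16 libraries. All 7 macrophage markers examined were at or above 1 CPM in every group, but their library sums differed. They summed to 14024 to 14172 CPM in WT naive, 24627 to 25027 CPM in WT TCM and 24028 to 24403 CPM in TRAP1 KO TCM. In the JMJD3 line the sums were 13809 to 14357 CPM in the wild type and 10747 to 11099 CPM in JMJD3 cKO TCM. The part of these differences in the receptor levels was not tested. Of 7 melanoma genes examined, only the melanocyte markers Tyr and Tyrp1 were at 0 in every library. Each group had 1 of the 7 at or above 1 CPM. The library sums of these melanoma genes ran from 78.8 CPM (a naive library) to 106 CPM (a library of the JMJD3 wild type). Since 1 gene alone reached 1 CPM in each group, it made up most of each sum, also in naive cells without TCM. In WT TCM the melanoma genes Dct, Mlana and Sox10 were at 0 as well. Trap1 was at 67.7 CPM in WT TCM and at 0.0377 CPM in TRAP1 KO TCM, where 4 libraries held 3 counts. Kdm6b had 25.1 CPM in the wild type of its line and 25.6 CPM in the libraries labelled JMJD3 cKO TCM. Counts summed over a gene cannot show that a part of it was deleted, so every direction given for that genotype rests on the label. The JMJD3 line stood apart from the other libraries on the first principal component, which held 64.6% of the variance (28.0 to 45.4 against -34.6 to -6.65). It also expressed Xist (845 CPM in its wild type) and no Ddx3y, while the other wild type had Ddx3y at 86.5 CPM with TCM. Line, sex and batch of the 2 sets cannot be told apart.

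Among the 9 receptors the spread between libraries of a group was small. Without Olr1, the coefficient of variation within a group ran from 0.508% to 8.52% with a median of 2.49%. Cell number and RNA per cell cannot be told apart in these bulk libraries, and neither can a change in every cell and a change in the share of cells.

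Promoter windows of 4 members are shown because Marco, Cd163 and Stab1 rose together in TRAP1 KO TCM while Cd68 fell. Each is the 250 bases that end just before the start site, read 5′ to 3′ on the gene's own strand from RefSeq on GRCm38.p6, and capitals mark motif matches. The Marco window lies at chr1:120505025-120505274 on the minus strand, the Cd163 window at chr6:124304401-124304650 on the plus strand, the Stab1 window at chr14:31168642-31168891 on the minus strand and the Cd68 window at chr11:69666171-69666420 on the minus strand.
Marco: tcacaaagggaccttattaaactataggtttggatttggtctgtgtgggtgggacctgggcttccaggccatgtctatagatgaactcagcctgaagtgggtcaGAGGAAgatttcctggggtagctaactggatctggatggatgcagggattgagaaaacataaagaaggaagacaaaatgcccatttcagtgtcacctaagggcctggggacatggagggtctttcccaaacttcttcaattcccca
Cd163: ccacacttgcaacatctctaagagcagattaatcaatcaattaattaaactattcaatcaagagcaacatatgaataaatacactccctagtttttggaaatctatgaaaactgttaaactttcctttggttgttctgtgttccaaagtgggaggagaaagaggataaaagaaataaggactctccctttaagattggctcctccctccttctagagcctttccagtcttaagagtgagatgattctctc
Stab1: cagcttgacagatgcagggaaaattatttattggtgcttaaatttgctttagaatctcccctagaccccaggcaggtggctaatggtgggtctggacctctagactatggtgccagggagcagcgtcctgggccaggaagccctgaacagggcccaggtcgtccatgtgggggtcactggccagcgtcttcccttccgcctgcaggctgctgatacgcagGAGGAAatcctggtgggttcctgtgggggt
Cd68: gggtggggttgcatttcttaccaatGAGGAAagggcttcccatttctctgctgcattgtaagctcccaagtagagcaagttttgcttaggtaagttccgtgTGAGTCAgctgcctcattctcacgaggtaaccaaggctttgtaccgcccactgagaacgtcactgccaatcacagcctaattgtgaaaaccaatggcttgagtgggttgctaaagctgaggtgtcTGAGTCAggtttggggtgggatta
Motifs of 3 kinds were searched on both strands. They were GAGGAA, a core recognised by the macrophage factor PU.1, TGANTCA, the AP-1 site, and CACGTG, the E-box bound by TFEB and its relatives. Capitals mark GAGGAA in the windows of Marco, Stab1 and Cd68, starting 146, 30 and 225 bases upstream of the start site. The Cd68 window also held TGAGTCA, an AP-1 match, 149 and 24 bases upstream. The Cd163 window held none of these letters. Of the 9 members, 7 had a window in the RefSeq table, 4 of the 7 held GAGGAA, 2 held the AP-1 site and 0 held CACGTG. The remaining match of GAGGAA was on the minus strand in Olr1, which also held an AP-1 match, and no matches overlapped. Over all 32536 windows of this length, 23.4% held GAGGAA, 6.73% the AP-1 site and 6.04% CACGTG. The windows of Cd36 and Scarb2, which were also called lower in TRAP1 KO TCM, held no match of the 3 motifs. Msr1 and Scarb1 were the members without a window.

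Levels across the groups differed most for Marco, Cd163 and Stab1 and least for Scarb2 and Cd36. The highest group mean was 11 times the lowest for Marco, 7.85 times for Cd163, 4.38 times for Stab1 and 2.25 times for Msr1. It was 1.58 times for Cd68, 1.43 times for Scarb1, 1.13 times for Cd36 and 1.12 times for Scarb2. TRAP1 KO TCM had the highest mean of Msr1, Marco, Cd163 and Stab1 and the lowest of Cd36, Scarb2 and Cd68. These ratios are descriptions of group means and carry no test.

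**Figure D1:**
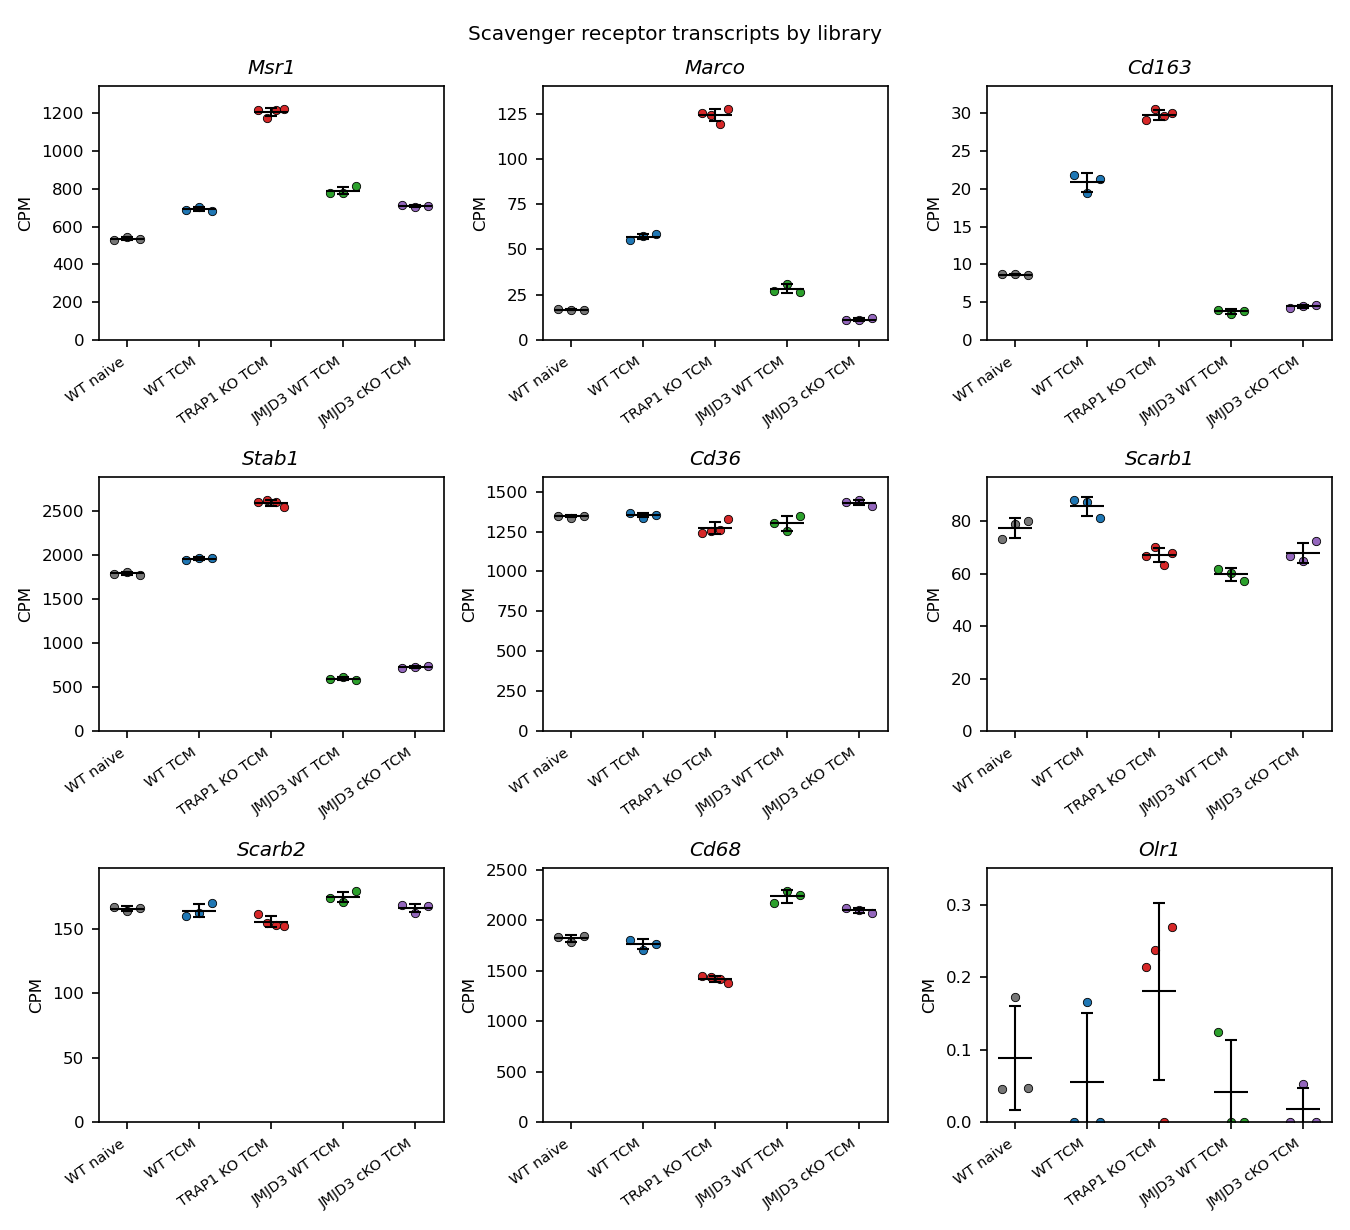
CPM of each of the 9 scavenger receptors (vertical axes, each from 0) in each library of the 5 groups (horizontal axes). Points are libraries, long bars are group means and error bars are 1 SD. Marco, Msr1, Cd163 and Stab1 are highest in all 4 TRAP1 KO TCM libraries, Cd163 and Stab1 are lowest in the JMJD3 line, and Olr1 never exceeds 5 counts per library.

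Per kilobase of annotated exon, Cd68 was the most abundant member in every group and Cd36 the next. In WT naive, Cd68 was at 1447 CPM per kilobase, Cd36 at 375, Stab1 at 174, Msr1 at 84.6, Scarb2 at 26.4, Scarb1 at 9.11, Marco at 8.73 and Cd163 at 1.59. Libraries of neighbours in that order did not overlap, except for Scarb1 and Marco. With TCM, Marco passed Scarb2 in the first wild type, at 29.7 against 26.1 CPM per kilobase. In TRAP1 KO TCM the distance widened, to 64.5 for Marco against 24.7 for Scarb2 (CPM per kilobase). In the JMJD3 line Msr1 stood above Stab1, at 125 against 57.7 CPM per kilobase in its wild type. Marco was at 14.8 CPM per kilobase there and at 5.86 in the libraries labelled JMJD3 cKO, below Scarb1 at 8.0.

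**Figure D2:**
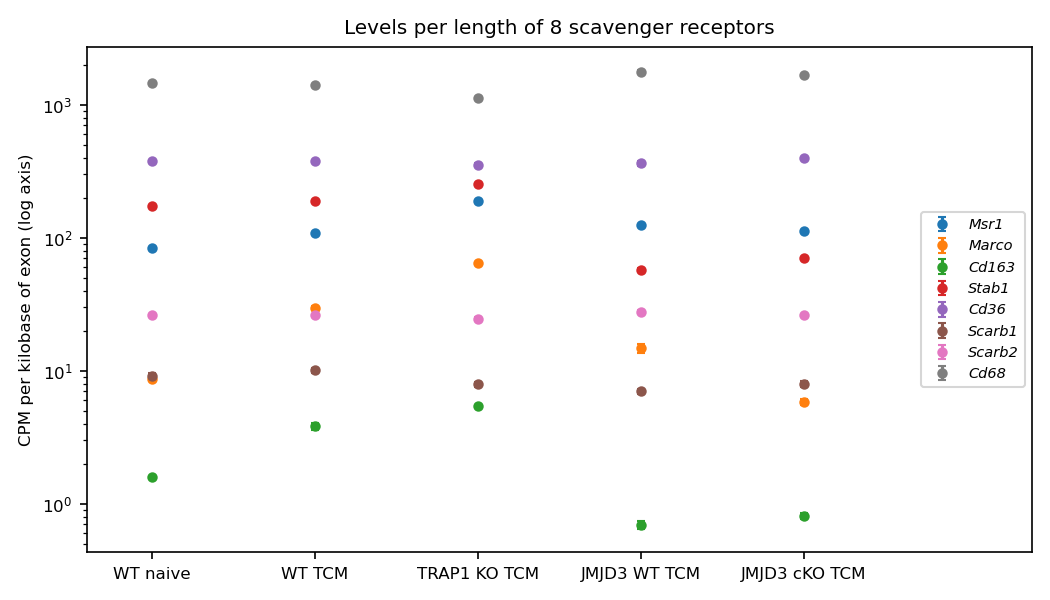
Mean CPM per kilobase of exon (vertical log axis) of 8 scavenger receptors in the 5 groups (horizontal axis), with 1 SD as error bars, mostly smaller than the points. Cd68 leads and Cd36 follows in every group, Marco rises past Scarb2 in WT TCM and TRAP1 KO TCM, and Msr1 stands above Stab1 in the JMJD3 line.

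The effect of the melanoma medium was read from WT TCM against WT naive. The class A receptor Marco and the haemoglobin scavenger receptor Cd163 rose most, 3.39-fold and 2.41-fold. Msr1, Stab1 and Scarb1 rose by less, and Cd36 and Scarb2 were not called. Of the 8 members tested, 5 were higher and 1 was lower at an adjusted p under 0.05 (edgeR's quasi-likelihood test). Over all 14078 genes tested, 21.6% were called higher and 20.6% lower, 42.2% in all. The median log2 change was 0.138 over the members and -0.00711 over all genes. Against a change of at least 1.2-fold, a test added after seeing the data, Msr1, Marco and Cd163 were called and the other members were not.

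Marco (ENSMUSG00000026390, chromosome 1, 120474538 to 120505024, minus strand, GRCm38, as for all positions here) binds bacteria and inhaled particles. Its WT naive libraries stood at 17.2, 16.7 and 16.5 CPM and its WT TCM libraries at 55.4, 57.7 and 58.4 CPM. Every library with TCM was above every library without it (log2 fold change 1.76, SE 0.05, adjusted p = 1.2e-50). Cd163 (ENSMUSG00000008845, chromosome 6, 124304656 to 124330527, plus strand) clears haemoglobin bound to haptoglobin. Naive libraries had 8.74, 8.69 and 8.58 CPM of it and those with TCM 21.9, 19.4 and 21.3 CPM. The groups did not overlap (log2 fold change 1.27, SE 0.08, adjusted p = 3.1e-25).

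Msr1 (ENSMUSG00000025044, chromosome 8, 39581685 to 39642673, minus strand) is the macrophage receptor for acetylated lipoprotein. Its libraries were at 529.6, 544 and 536 CPM without TCM and at 689, 704 and 682 CPM with it, which do not overlap (log2 fold change 0.37, SE 0.02, adjusted p = 3.5e-34). Stab1 (ENSMUSG00000042286, chromosome 14, 31139013 to 31168641, minus strand) internalises acetylated lipoprotein and the matrix protein SPARC. It rose from 1789, 1811 and 1780.3 CPM to 1945, 1972 and 1969.8 CPM, a shift of 1.09-fold with no overlap (log2 fold change 0.13, SE 0.01, adjusted p = 9.6e-14). The annotated 3′ end of Stab1 overlaps that of Nt5dc2 on the other strand, which averaged 104 CPM, and the strand setting of the counting is not known.

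In class B, the lipoprotein receptor Scarb1 (ENSMUSG00000037936, chromosome 5, 125277087 to 125341094, minus strand) rose slightly. The libraries had 73.3, 78.8 and 80.3 CPM without TCM and 88.1, 87.6 and 81.3 CPM with it (log2 fold change 0.15, SE 0.04, adjusted p = 0.001). The lowest TCM library lay just above the highest naive one. Cd36 (ENSMUSG00000002944, chromosome 5, 17781690 to 17888801, minus strand), the receptor for oxidised lipoprotein and long-chain fatty acids, was at 1350.2, 1338 and 1350.2 CPM before and at 1366, 1338 and 1356 CPM after TCM. These groups overlapped (log2 fold change 0.01, 95% interval -0.03 to 0.04, adjusted p = 0.77). Scarb2 (ENSMUSG00000029426, chromosome 5, 92441314 to 92506833, minus strand), a membrane protein of the lysosome, also overlapped, at 167, 164 and 166 CPM against 159.8, 162 and 169.7 CPM. Its log2 fold change was -0.02 (95% interval -0.07 to 0.04, adjusted p = 0.67).

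Cd68 (ENSMUSG00000018774, chromosome 11, 69664213 to 69666153, minus strand), the lysosomal glycoprotein used as a general macrophage marker, was the member called lower. Its libraries stood at 1833, 1782 and 1843 CPM without TCM and at 1805, 1706 and 1769 CPM with it, and the groups overlapped (log2 fold change -0.05, SE 0.02, adjusted p = 0.038). The call on Cd68 was lost without WT naive replicate 1 (adjusted p = 0.12) or 3 (0.15), and without WT TCM replicate 2 (0.26) or 3 (0.083). DESeq2 did not call it either (adjusted p = 0.29).

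Olr1 (ENSMUSG00000030162, chromosome 6, 129485244 to 129507165, minus strand), the receptor for oxidised lipoprotein first known from endothelium, had 26 counts in all 16 libraries. Its libraries held 1, 4 and 1 counts in naive cells, 0, 3 and 0 counts with TCM, 4, 5, 0 and 5 in TRAP1 KO TCM, 2, 0 and 0 in JMJD3 WT TCM, and 0, 1 and 0 in JMJD3 cKO TCM. In 7 libraries it was at 0. No group as a whole was at 0 counts, and the highest group mean was 0.180 CPM, in TRAP1 KO TCM. Had a group been at 0, the limit of 3 counts over it would lie between 0.0398 and 0.0593 CPM, for counting error only. Groups differing by so few counts cannot be compared at this depth.

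Markers of other cell types moved with TCM as well. The 8 neutrophil genes summed to 50.1 to 54.1 CPM in WT naive, with 5 of 8 at or above 1 CPM, and to 4.09 to 5.46 CPM in WT TCM, with 2 of 8 there and Mpo and Ly6g at 0. The 7 endothelial genes summed to 73.1 to 77.9 CPM without TCM (4 of 7 at or above 1 CPM, Lyve1 at 0) and to 48.6 to 51.7 CPM with it (5 of 7). The 5 platelet genes summed to 180 to 188 CPM without TCM (1 of 5 at or above 1 CPM) and 582 to 589 CPM with it (2 of 5). Almost all of each sum was Pf4, which macrophages also express. The part of these cells in the receptor changes was not tested.

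**Figure D3:**
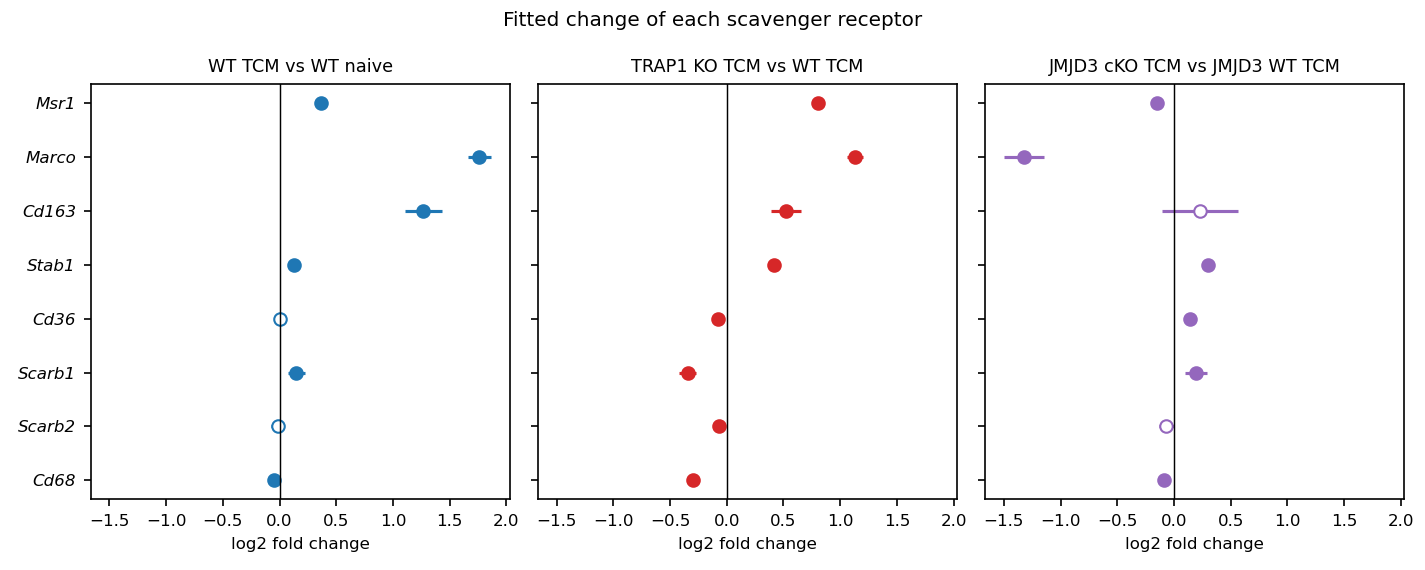
Fitted log2 fold change (horizontal axes) of the 8 tested scavenger receptors (vertical axis) in 3 comparisons, with 95% intervals; filled points have an adjusted p under 0.05. Marco stands at 1.76, 1.13 and -1.32 from left to right, while Cd36 and Scarb2 stay near 0.

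The effect of losing TRAP1 in the presence of the medium was read from TRAP1 KO TCM against WT TCM. Msr1, Marco, Cd163 and Stab1 were higher without TRAP1, and Scarb1, Cd68, Cd36 and, by the weakest call, Scarb2 were lower. All 8 tested members were called, 4 in each direction, against 42.2% of all 14078 genes (21.2% higher and 21% lower). The median log2 change was 0.173 for the members and 0.0087 for all genes. Against a change of at least 1.2-fold, Cd36 and Scarb2 were no longer called. Since WT TCM is the treated group of the comparison above and the control here, the values of both comparisons share those 3 libraries.

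Marco was at 125, 124, 119.6 and 128 CPM in TRAP1 KO TCM, beside 57.1 ± 1.55 CPM (SD, n = 3) in WT TCM. It was 2.19-fold higher with no overlap (log2 fold change 1.13, SE 0.04, adjusted p = 7.2e-47). Msr1 was at 1214, 1172, 1215 and 1221 CPM, beside 692 ± 11.4 CPM in WT TCM, and was 1.75-fold higher (log2 fold change 0.81, SE 0.02, adjusted p = 9.8e-63). The libraries of both class A receptors lay far outside the wild-type range. Cd163 stood at 29.1, 30.6, 29.6 and 30.0 CPM against 20.9 ± 1.29 CPM, with every knockout library above every wild-type one (log2 fold change 0.52, SE 0.07, adjusted p = 7.2e-11). Stab1 stood at 2609, 2629, 2610.1 and 2550.1 CPM against 1962 ± 15.2 CPM, again with no overlap (log2 fold change 0.41, SE 0.01, adjusted p = 2.7e-47).

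Among the members that fell, Scarb1 and Cd68 changed most. Scarb1, which exchanges cholesterol with high-density lipoprotein, was at 66.8, 70.3, 63.5 and 68.1 CPM against 85.7 ± 3.76 CPM in WT TCM. It was 1.27-fold lower with no overlap (log2 fold change -0.35, SE 0.04, adjusted p = 3.1e-13). Cd68 stood at 1449, 1438, 1412 and 1379.7 CPM against 1759.9 ± 50.2 CPM and was 1.23-fold lower, also with no overlap (log2 fold change -0.30, SE 0.02, adjusted p = 7.5e-15). Cd36 stood at 1244, 1256, 1261 and 1327 CPM against 1353 ± 14.2 CPM. The highest Cd36 knockout library was close below the lowest wild-type one, and the change was small (log2 fold change -0.08, SE 0.02, adjusted p = 6.0e-06).

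Scarb2 was at 162, 154, 153 and 152 CPM in TRAP1 KO TCM against 164 ± 5.16 CPM in WT TCM. The groups overlapped, and the call was the weakest of the 8 (log2 fold change -0.07, SE 0.03, adjusted p = 0.033). It was lost without WT TCM replicate 3 (adjusted p = 0.24) and without TRAP1 KO TCM replicate 2 (0.069), 3 (0.099) or 4 (0.083). It was also lost with no filter on low counts (adjusted p = 0.079).

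Markers of other cell types also differed between these groups. A list of 7 endothelial genes, the other cell type known for Stab1, Cd36 and Olr1, summed to 48.6 to 51.7 CPM in WT TCM and 31.4 to 33.7 CPM in TRAP1 KO TCM, with 5 of 7 at or above 1 CPM in both. Tek was at 0 in TRAP1 KO TCM. A list of 7 stromal genes summed to 14 to 15 CPM in WT naive, 0.221 to 0.404 CPM in WT TCM and 5.3 to 7.05 CPM in TRAP1 KO TCM. In that order 3, 0 and 3 of the 7 stromal genes reached 1 CPM, and Col3a1, Pdgfra and Dcn were at 0 in WT TCM. The part of endothelial and stromal cells in the changes described here was not tested. The 5 platelet markers summed to 582 to 589 CPM in WT TCM and 1026 to 1041 CPM in TRAP1 KO TCM, with 2 of 5 at or above 1 CPM in both. Almost all of it was again Pf4, while Gp9 and Itga2b stayed below 1 CPM in both.

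JMJD3 cKO TCM was compared with JMJD3 WT TCM for the effect of the conditional allele. Marco fell 2.50-fold and was the member with the largest change. Stab1, Scarb1 and Cd36 rose, Msr1 and Cd68 fell slightly, and Cd163 and Scarb2 were not called. Of 8 members tested, 3 were higher and 3 lower, against 35.1% of all 13476 genes tested (17.3% higher and 17.8% lower). The median log2 change was 0.0369 for the members and 0.00823 for all genes. Against a change of at least 1.2-fold, Marco was the 1 member still called.

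Marco stood at 27.3, 31.2 and 26.8 CPM in JMJD3 WT TCM and at 10.9, 10.9 and 12.0 CPM in the libraries labelled JMJD3 cKO. Every knockout library was below every wild-type one (log2 fold change -1.32, SE 0.09, adjusted p = 8.3e-17), and below all 3 WT naive libraries of the other set. Msr1, the other class A receptor, went the same way by much less. It stood at 779, 778 and 814 CPM against 715, 702 and 710.1 CPM in the knockout with no overlap (log2 fold change -0.15, SE 0.03, adjusted p = 4.8e-06). Cd68 stood at 2167, 2289 and 2253 CPM against 2122, 2099 and 2071 CPM in the knockout, again without overlap (log2 fold change -0.09, SE 0.02, adjusted p = 0.0025).

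Stab1 stood at 594, 612 and 576 CPM in JMJD3 WT TCM and 717, 728 and 736 CPM in the libraries labelled JMJD3 cKO, which was 1.23-fold higher (log2 fold change 0.30, SE 0.03, adjusted p = 1.5e-12). Endothelial genes summed to 207 to 211 CPM in the wild type and 103 to 113 CPM in the knockout, with 5 of 7 at or above 1 CPM in both, led by Kdr at 142 and 60.1 CPM, and their part in the Stab1 change was not tested. Scarb1 stood at 62.0, 60.1 and 57.1 CPM in the wild type and at 66.6, 65.0 and 72.3 CPM in the knockout (log2 fold change 0.19, SE 0.05, adjusted p = 0.0016). Cd36 stood at 1305, 1254 and 1345 CPM in the wild type and at 1436, 1448 and 1413 CPM in the knockout (log2 fold change 0.14, SE 0.02, adjusted p = 8.9e-06). In these 3 genes each knockout library was above each wild-type library. Neutrophil markers summed to 21.1 to 25.0 CPM in the wild type and 38.9 to 40.6 CPM in the knockout over 8 genes, of which 4 reached 1 CPM in each group, with Ly6g at 0 in the wild type. Their part in these changes was not tested.

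Cd163 was low in this line, with 50 to 101 counts per library. It stood at 4.03, 3.47 and 3.90 CPM in JMJD3 WT TCM and at 4.18, 4.54 and 4.62 CPM in the knockout. The libraries did not overlap, but the difference was not called (log2 fold change 0.23, 95% interval -0.11 to 0.57, adjusted p = 0.31). Scarb2 stood at 174, 171 and 179 CPM against 168, 163 and 168 CPM, likewise without overlap and not called (log2 fold change -0.07, SE 0.03, adjusted p = 0.11).

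The difference between the TRAP1 effect and the JMJD3 effect was tested in a fit of all 16 libraries. Marco differed most, by 2.45 on the log2 scale (SE 0.08, adjusted p = 3.8e-46), since it rose without TRAP1 and fell in the libraries labelled JMJD3 cKO. Msr1 differed in the same way by 0.96 (SE 0.03, adjusted p = 4.1e-50). The opposite pattern, lower without TRAP1 and higher in JMJD3 cKO, was found for Scarb1 (difference -0.54, SE 0.06, adjusted p = 1.5e-12) and Cd36 (-0.23, SE 0.03, adjusted p = 4.1e-11). Cd68 fell in both and by more without TRAP1 (difference -0.22, adjusted p = 3.6e-10). Stab1 rose in both, and the rise was 0.11 larger without TRAP1 (adjusted p = 0.00012). Against a difference of at least 1.2-fold, Stab1, Cd36 and Cd68 were no longer called. In all, 3 members had a higher and 3 a lower TRAP1 effect, against 37.9% of 14545 genes called (18.4% and 19.5%). For Cd163 the difference was 0.29 (95% interval -0.02 to 0.60, adjusted p = 0.14) and for Scarb2 it was near 0 (95% interval -0.09 to 0.08, adjusted p = 0.96). Because each effect was measured in its own line, this contrast also holds whatever sets the lines apart.

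**Figure D4:**
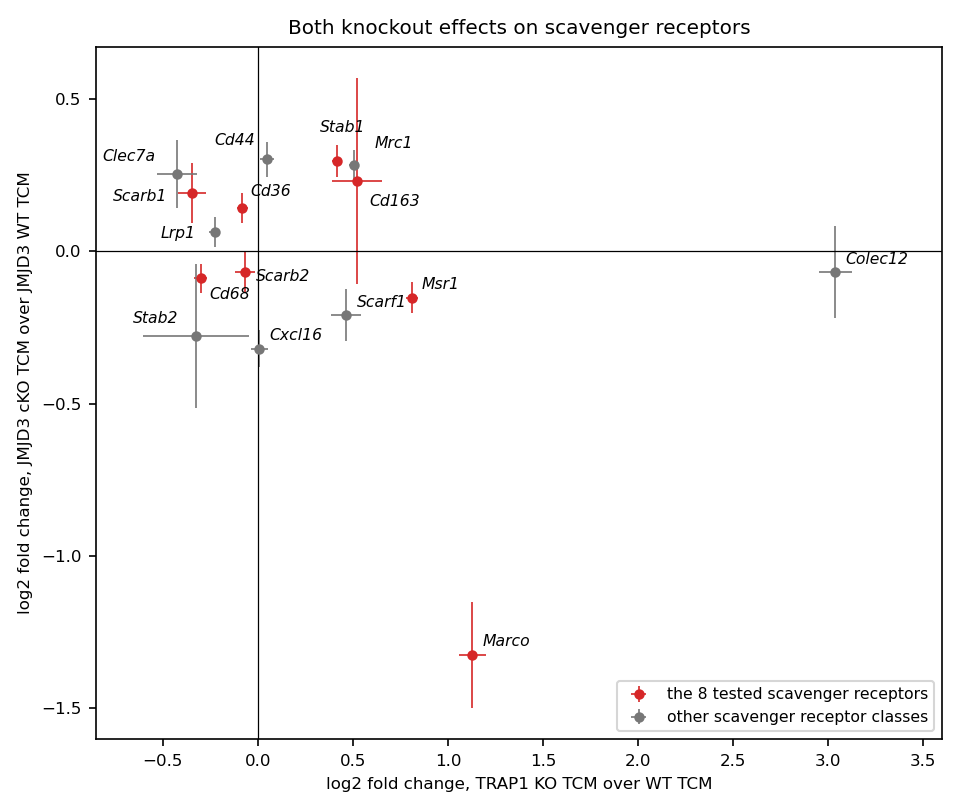
Log2 fold change in TRAP1 KO TCM over WT TCM (horizontal axis) against that in JMJD3 cKO TCM over JMJD3 WT TCM (vertical axis), with 95% intervals, for the 8 tested scavenger receptors (red) and 8 genes of other scavenger receptor classes (grey). Marco lies at 1.13 and -1.32, Colec12 at 3.04 and -0.07, and Stab1 and Mrc1 rise in both.

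The wild types of the 2 sets differed from each other under TCM. Cd163 was 5.48-fold, Stab1 3.30-fold and Marco 2.01-fold lower in JMJD3 WT TCM than in WT TCM. Their log2 differences were -2.45 (SE 0.11, adjusted p = 2.7e-37), -1.72 (SE 0.02, adjusted p = 7.4e-86) and -1.01 (SE 0.05, adjusted p = 2.0e-31). Scarb1 was lower as well (-0.52, adjusted p = 3.0e-18), while Cd68 (0.35, adjusted p = 1.6e-24) and Msr1 (0.19, adjusted p = 3.6e-14) were higher. Of 8 members, 3 were higher and 5 lower, against 61.3% of 14545 genes called (30% and 31.3%). Cd36 was called lower (-0.06, adjusted p = 0.012), but its groups overlapped and the call was lost without JMJD3 WT TCM replicate 2 (0.15). Scarb2 was called higher (0.09, adjusted p = 0.0062), which did not hold without WT TCM replicate 1 (0.077) or JMJD3 WT TCM replicate 3 (0.064). Endothelial genes summed to 207 to 211 CPM in JMJD3 WT TCM against 48.6 to 51.7 CPM in WT TCM. In the same order, neutrophil genes summed to 21.1 to 25.0 against 4.09 to 5.46 CPM. A list of 6 dendritic cell genes summed to 8.46 to 10.7 against 0.951 to 1.51 CPM. Macrophage genes (13809 to 14357 against 24627 to 25027 CPM) and platelet genes (173 to 195 against 582 to 589 CPM) were lower in JMJD3 WT TCM. The part of these cell types in the receptor differences was not tested.

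Scavenger receptors outside the 9 were read from a list of 15 genes, of which 9 could be tested. In the order TCM, TRAP1 KO and JMJD3 cKO, 3, 4 and 4 of them were higher and 2, 2 and 2 lower, against 42.2%, 42.2% and 35.1% of all genes called. Scara3, Scara5, Asgr1, Megf10, Cd163l1 and Lrp2 were too low to test, and Ager stayed below 1 CPM.

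Colec12, a class A receptor with a C-type lectin domain, changed more than any of the 8 tested members when TRAP1 was absent. It was at 19.0 ± 0.110 CPM in WT TCM and 155 ± 5.15 CPM in TRAP1 KO TCM, 8.22-fold higher with no overlap (log2 fold change 3.04, SE 0.04, adjusted p = 2.2e-73). Naive cells had 23.3 ± 1.87 CPM, and the change with TCM was -0.29 on the log2 scale (SE 0.06, adjusted p = 2.8e-05). In the JMJD3 line it was at 25.7 ± 2.71 and 24.4 ± 1.16 CPM, and no change was called (95% interval -0.22 to 0.08, adjusted p = 0.52). Colec12 is also known from stromal and endothelial cells. The stromal sum was 0.221 to 0.404 CPM in WT TCM, 5.3 to 7.05 CPM in TRAP1 KO TCM and 14 to 15 CPM in WT naive, and the part of stromal cells in the rise of Colec12 was not tested.

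Mrc1, the mannose receptor that takes up glycoproteins, rose in all 3 comparisons. Naive cells had 606 ± 7.18 CPM, WT TCM cells 2603 ± 46.3 CPM and TRAP1 KO TCM cells 3678 ± 30.3 CPM, and in the JMJD3 line it was 934 ± 16.8 and 1134 ± 15.8 CPM. The log2 changes were 2.10, 0.51 and 0.28 (adjusted p = 9.9e-101, 1.4e-54 and 4.4e-13). Scarf1, an endocytic receptor for modified lipoprotein, was at 56.1 ± 2.60 CPM in WT TCM and at 77.1 ± 3.44 CPM in TRAP1 KO TCM (log2 fold change 0.46, adjusted p = 3.0e-18). It fell in the libraries labelled JMJD3 cKO, from 89.0 ± 3.72 CPM to 76.6 ± 1.24 CPM, a log2 fold change of -0.21 (adjusted p = 9.4e-05). Clec7a, the receptor for fungal glucans, went the other way, with log2 changes of -0.42 without TRAP1 (adjusted p = 9.5e-11) and 0.26 in JMJD3 cKO (adjusted p = 0.00025).

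Cxcl16, a membrane chemokine that also binds oxidised lipoprotein, fell with TCM (log2 fold change -0.38, adjusted p = 2.8e-26) and in JMJD3 cKO (-0.32, adjusted p = 7.8e-12). Without TRAP1 its change was 0.01 (95% interval -0.04 to 0.05, adjusted p = 0.85). Lrp1, the large endocytic receptor for lipoprotein remnants and haemopexin complexes, fell without TRAP1 from 2762 ± 24.6 CPM to 2348 ± 45.0 CPM, a log2 fold change of -0.23 (adjusted p = 2.2e-18). In JMJD3 cKO Lrp1 was called higher (0.06, adjusted p = 0.036), a call lost without JMJD3 WT TCM replicate 3 (0.37) and without JMJD3 cKO TCM replicate 1 (0.12) or 3 (0.14). Cd44, the hyaluronan receptor, rose with TCM (log2 fold change 0.39, adjusted p = 5.7e-31) and in JMJD3 cKO (0.30, adjusted p = 9.9e-12). Without TRAP1 Cd44 was called higher by little (0.05, adjusted p = 0.040). That adjusted p reached 0.16 when single libraries were left out. Stab2, the paralogue of Stab1, was at 4.44 to 9.62 CPM in group means and was called in none of the 3 comparisons.

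Genes that handle the lipid a scavenger receptor brings in were mostly lower with TCM and again without TRAP1. Of 13 genes, 10 fell and 3 rose with TCM, and 11 fell and 0 rose in TRAP1 KO TCM (the other 2 were not called). Of all genes, 20.6% fell with TCM and 21% without TRAP1. The median log2 change of the list in TRAP1 KO TCM was -0.48 against 0.0087 for all genes. With TCM, Lipa, the lysosomal acid lipase, fell from 1500.4 ± 13.3 to 868 ± 1.58 CPM, while the cholesterol exporter Abca1 rose from 641 ± 9.15 to 885 ± 14.6 CPM. Apoe, the apolipoprotein that macrophages secrete with exported cholesterol, rose with TCM from 6154 ± 60.6 to 9626 ± 102 CPM and was at 2127 ± 48.6 CPM in TRAP1 KO TCM. The second change was -2.17 on the log2 scale (SE 0.01, adjusted p = 1.6e-79). Npc1, the lysosomal cholesterol transporter, fell without TRAP1 from 318 ± 8.68 to 199 ± 2.78 CPM, and the lipid droplet coat protein Plin2 from 793 ± 0.854 to 566 ± 11.1 CPM. In JMJD3 cKO 5 genes of this list were higher and 4 lower, against 35.1% of all genes called. There Lpl, lipoprotein lipase, rose from 803 ± 23.4 to 1168 ± 22.9 CPM and the exporter Abcg1 fell from 563 ± 6.79 to 370.4 ± 7.37 CPM.

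Lysosomal genes, which degrade the cargo, were mostly lower in TRAP1 KO TCM, as Cd68 was. Of 14 genes, 12 were lower and 2 higher there (median log2 change -0.19), against 21% and 21.2% of all genes, and 8 were lower and 3 higher with TCM, against 20.6% and 21.6%. Ctss, a cysteine protease, was at 2793 ± 34.9 CPM in WT TCM and 1884 ± 11.7 CPM in TRAP1 KO TCM. Atp6v0d2, a subunit of the acidifying proton pump, went from 69.5 ± 1.94 to 32.7 ± 2.30 CPM. Ctsl was one of the exceptions and rose from 2055 ± 27.1 to 2608 ± 37.1 CPM. In JMJD3 cKO, 5 lysosomal genes were higher and 2 lower (17.3% and 17.8% of all genes), with Ctsl rising from 3227 ± 51.6 to 4628 ± 127 CPM and Lamp2 falling from 1616 ± 61.0 to 1291 ± 23.8 CPM.

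Genes that handle haem and iron after Cd163 has delivered haemoglobin were mostly higher with the medium. Of 11 genes, 8 were higher and 1 lower with TCM (21.6% and 20.6% of all genes). In TRAP1 KO TCM 6 were higher and 3 lower (21.2% and 21% of all genes), and in JMJD3 cKO 2 were higher and 4 lower (17.3% and 17.8%). Slc40a1, the iron exporter ferroportin, rose from 42.8 ± 1.35 CPM in naive cells to 92.4 ± 2.14 CPM in WT TCM and 172 ± 2.68 CPM in TRAP1 KO TCM, and Cd163 had the same order over these 3 groups. In the JMJD3 line Slc40a1 was at 51.6 ± 2.06 and 47.8 ± 0.945 CPM, above WT naive, whereas Cd163 was below it. Blvrb, which reduces biliverdin, rose over the first 3 groups as well, at 121 ± 4.70, 154 ± 2.26 and 229 ± 1.37 CPM, and so did Nfe2l2, the regulator of antioxidant genes, at 176 ± 3.09, 239 ± 4.56 and 312 ± 6.35 CPM. In the JMJD3 line Blvrb fell, from 154 ± 1.27 to 133 ± 3.54 CPM.

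Receptors and kinases that signal beside scavenger receptors gave 5 higher and 3 lower of 12 both with TCM and without TRAP1, and 3 higher and 7 lower in JMJD3 cKO. Of all genes 42.2%, 42.2% and 35.1% were called in these comparisons. Cd14, the co-receptor for bacterial lipopolysaccharide, had 205 ± 1.81 CPM in naive cells, 840.5 ± 10.5 CPM in WT TCM and 1191 ± 30.5 CPM in the TRAP1 knockout. Tlr2, a partner of Marco and Cd36 in sensing bacterial products, had 54.8 ± 0.693, 77.4 ± 2.22 and 145 ± 4.73 CPM in the same order. Lyn, a kinase downstream of Cd36, fell in JMJD3 cKO from 379 ± 6.00 to 314 ± 6.77 CPM.

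Transcription factors and a cytokine that are known to control these receptors were also read from a list. Of 13, 5 were higher and 6 lower with TCM, 7 higher and 2 lower without TRAP1, and 3 higher and 8 lower in JMJD3 cKO (median log2 change -0.18), against 42.2%, 42.2% and 35.1% of all genes called. Pparg, which drives Cd36 in macrophages, had 47.6 ± 0.606 CPM in naive cells, 22.3 ± 1.72 CPM with TCM and 12.8 ± 0.774 CPM with TCM and no TRAP1, while Cd36 changed by 0.01 and -0.08 on the log2 scale over the same steps. Maf rose with TCM from 650.1 ± 12.0 to 1167 ± 22.7 CPM, and Nr1h3, the oxysterol receptor LXR alpha, fell from 60.2 ± 0.706 to 22.8 ± 0.386 CPM. In the JMJD3 line the cytokine Il10, which induces Cd163, fell from 16.9 ± 0.967 to 8.99 ± 0.169 CPM. Cd163 was not called there, but it had only 50 to 101 counts per library and a log2 interval of -0.11 to 0.57. Between the wild types, Il10 was 4.31-fold higher and Cd163 5.48-fold lower in JMJD3 WT TCM than in WT TCM. The part of Il10 in the level of Cd163 was not tested, and neither was that of Pparg in the level of Cd36.

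For 6 members, the genes with the most similar profile over the 16 libraries were found by the root mean square difference of centred log2 CPM among 9326 genes. The nearest genes were Ninj1 for Msr1 (difference 0.0875 log2 units), Mmp14 for Marco (0.371) and Plau for Stab1 (0.167). They were Rab7 for Cd36 (0.0354), Rpn1 for Scarb1 (0.0653) and Crkl for Scarb2 (0.0311). The next were Ralgds, Marcksl1 and Pgm2l1 for the first 3 and Psmc6, Pcyt2 and Map4 for the others. The members differ in how far they move at all, with an SD of log2 CPM of 1.33 for Marco and 0.0653 for Scarb2, so a small difference is easier to reach for a flat profile. Likeness over 16 libraries that share 5 conditions is a description of these samples.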

How the data were processed

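RNA sequencing counts of 16 mouse macrophage libraries were used. Ribo-Zero depletion and a TruSeq Stranded kit were used, per the labels' protocols. Without roles or versions, mm10, Bowtie2, HISAT, RSEM and StringTie are named in the submitters' processing notes. The counting tool, annotation and strand setting are not given in the sources, so values of overlapping genes are uncertain. The authors deposited whole-number counts for each of 54532 gene identifiers per library. Symbols and positions came from GENCODE M21 (54495 identifiers matched, and the other 37 held at most 0.0036% of a library).

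Counts were tested with edgeR (4.0.16, R 4.3.3): filterByExpr with a minimum of 10 counts, TMM scaling and a robust quasi-likelihood fit, with Benjamini-Hochberg adjustment over all genes tested. An adjusted p under 0.05 was a call. SEs are the size of the unshrunk fitted coefficient divided by the square root of its F statistic, and 95% intervals lie around that coefficient. The log2 fold changes beside them are those edgeR reports, shrunk slightly by a prior count. The first 2 comparisons shared a fit of 10 libraries (7 residual degrees of freedom), the JMJD3 comparison used 6 (4) and the others used all 16 (11). Alternatives were other size factors, no filter, DESeq2 (1.42.0), a replicate block, other sets of libraries and leaving out each library. The script was tested on simulated data. No libraries looked like duplicates (chi-square per degree of freedom 1.74 to 2.72 over 18 pairs within groups).

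Members and lists were chosen with earlier results of these data known. Beside the 9 members, named genes were the targeted genes, up to 3 called genes per list and comparison with the smallest adjusted p, genes of the other scavenger classes at 5 CPM or more in any group, the marker genes of other cell types, and the 2 nearest profiles per member. A few genes these rules select are not reported here. Promoter windows came from RefSeq (GRCm38.p6).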

Additional observations from a re-analysis of the deposited data

Results flagged for a closer look

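In TRAP1 KO TCM, the group of 4, the lowest Msr1 library (replicate 2) stood at 1172 CPM, apart from the other 3 at 1214 to 1221 CPM. Its distance to its neighbour exceeded Dixon's 95% limit for 4 samples. By chance alone about 1 in 20 groups passes that limit, and 9 such groups were examined, so a single flag among them can arise by chance. All 4 libraries were above every other library of the study for Msr1.

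The TRAP1 and JMJD3 effects differed by test for 6 members. On the log2 scale the TRAP1 effect minus the JMJD3 effect was 2.45 for Marco, 0.96 for Msr1, 0.11 for Stab1, -0.22 for Cd68, -0.23 for Cd36 and -0.54 for Scarb1. Against a difference of at least 1.2-fold, Stab1, Cd36 and Cd68 were no longer called. For Marco, Msr1, Cd36 and Scarb1 the effects were called in opposite directions. The lines differ in sex and possibly in batch, and their part in these differences cannot be told apart from that of the genotypes.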

How the results depend on the processing

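A test against a change of at least 1.2-fold, chosen after seeing the data, left 3 members higher and 0 lower with TCM (1008 and 992 of all genes). It left 2 lower members without TRAP1 (873 genes higher and 1025 lower) and 0 higher and 1 lower in JMJD3 cKO (386 and 714 genes). For the difference it left 2 higher members and 1 lower, without Stab1, Cd36 and Cd68 (1079 and 1236 genes), and for the wild types 1 higher member (2712 and 2695 genes). DESeq2 called 1459 genes higher in JMJD3 cKO, where edgeR called 2326. The single lower member with TCM (Cd68) was 0 with DESeq2 or with DESeq2 size factors, and 0 to 1 when single libraries were left out.

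Replicate numbers did not pair the libraries, with correlations of same-numbered deviations of -0.0857 to 0.0762. With the replicate block, lower members without TRAP1 were 3 in place of 4, since Scarb2 was lost (log2 fold change -0.06, adjusted p = 0.089). Only TRAP1 KO TCM has a replicate 4, so the block fits that library exactly and in effect leaves it out. Leaving out that library without a block also lost the Scarb2 call (adjusted p = 0.083), so the 2 losses are not separate checks. The member counts of the other comparisons did not change under the block. Marco stayed at 1.76, 1.12 and -1.32 under the block.

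Signs turned only for values that were not called. Leaving out single libraries, the TCM changes of Scarb2 ran from -0.040 to 0.0017, of Clec7a from -0.069 to 0.014 and of Lrp1 from -0.0082 to 0.027. Cxcl16 without TRAP1 ran from -0.0085 to 0.021, Colec12 and Kdm6b in JMJD3 cKO from -0.13 to 0.019 and from -0.018 to 0.082, and the difference for Scarb2 from -0.026 to 0.016. Cxcl16 without TRAP1 was also -0.00132 in the fit of all 16 libraries and -0.00163 with only its 2 groups, and Cd36 with TCM was -0.000802 with no filter. The difference for Scarb2 was 0.00517 with DESeq2 size factors, 0.00499 with no filter, 0.00532 with the block and 0.000763 with DESeq2. Depth limits Olr1 and, in the JMJD3 line, Cd163.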
